A study of Mus musculus with 15 samples.

Results

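Beta cells that lose their mature state, a process termed dedifferentiation, are recognised by the return of genes that are silent or low in the mature cell. The 7 genes Aldh1a3, Sox9, Hes1, Myc, Mycl, Gast and Cck, which recur in work on this process, were taken by name from the 22028 protein-coding genes of GENCODE mouse release 21 (GRCm38). For each gene, peaks of 2 histone marks were read at the promoter, defined as 1 kb either side of any start of its protein-coding transcripts, and in the gene body with 20 kb either side.

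The data came from chromatin immunoprecipitation followed by sequencing (ChIP-seq) of pancreatic islets from male CBA mice on 3 diets, a regular diet (RD), a high-fat diet (HFD) and HFD with 0.8 mg/g of the AMPK activator O304 (HFD-O304). Diets started at 10 weeks of age and lasted 9 to 10 weeks. About 600 islets were used per ChIP, so that each sample averages over the cell types of the islet, and a change in cell numbers and a change in the mark per cell cannot be told apart. The 12 ChIP samples (2 per mark and diet) were merged by the authors into 6 peak lists, 1 per mark and diet, so that the replicate error is unknown and differences between diets were not tested, and the 3 input samples were not subtracted when peaks were called.

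H3K27Ac, acetylation of lysine 27 of histone H3, is found at active promoters and enhancers. H3K27Me3, trimethylation of the same residue, is laid down by Polycomb repressive complex 2 and covers developmental genes that are held silent, often at promoters rich in CpG dinucleotides. As the same lysine cannot carry both groups, a promoter with both marks in bulk islets holds them on different histone tails, alleles or cells. Among the genes, Aldh1a3 encodes a retinaldehyde dehydrogenase that makes retinoic acid, Sox9 and Hes1 encode transcription factors of pancreatic progenitors and duct cells, Myc and Mycl encode growth-promoting transcription factors, and Gast and Cck encode the related peptide hormones gastrin and cholecystokinin.

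The promoter sequences of Mycl, Gast and Cck are given, as those of the genes found in the sequence table, to set the CpG content beside the marks. They are RefSeq sequences of GRCm38.p6, run 5′ to 3′ along transcription from 250 bases before to 50 bases after the start, and have every CG in capitals. The positions were chr4:122995681-122995980 on the plus strand for Mycl, chr11:100334157-100334456 on the plus strand for Gast and chr9:121495645-121495944 on the minus strand for Cck. The table used held 3 of the 7 genes, and Aldh1a3, Sox9, Hes1 and Myc had no entry.
Mycl: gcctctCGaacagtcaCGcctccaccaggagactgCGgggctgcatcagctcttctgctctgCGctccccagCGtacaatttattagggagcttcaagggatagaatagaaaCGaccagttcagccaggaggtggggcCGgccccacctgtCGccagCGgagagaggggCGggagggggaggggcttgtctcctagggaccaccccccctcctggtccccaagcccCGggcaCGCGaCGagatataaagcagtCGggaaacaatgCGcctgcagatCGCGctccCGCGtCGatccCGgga
Gast: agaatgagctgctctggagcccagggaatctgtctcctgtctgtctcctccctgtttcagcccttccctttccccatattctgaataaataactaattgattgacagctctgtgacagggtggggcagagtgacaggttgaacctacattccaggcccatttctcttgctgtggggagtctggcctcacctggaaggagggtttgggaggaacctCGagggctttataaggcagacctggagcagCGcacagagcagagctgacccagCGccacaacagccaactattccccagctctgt
Cck: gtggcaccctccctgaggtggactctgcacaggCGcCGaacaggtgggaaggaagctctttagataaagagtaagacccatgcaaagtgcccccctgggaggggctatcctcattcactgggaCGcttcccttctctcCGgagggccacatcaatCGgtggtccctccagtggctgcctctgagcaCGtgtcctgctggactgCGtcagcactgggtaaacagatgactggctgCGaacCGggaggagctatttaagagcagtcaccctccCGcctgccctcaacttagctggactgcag
The Mycl promoter held 22 CG dinucleotides, a number reached by 23.1% of 32851 promoters of the same length in the table, whose median was 7. Promoters of a single chromosome, on which none of the genes described lies, were left out of this set. The Cck promoter held 10, reached by 43.5%, and the Gast promoter held 3, reached by 76.7%. The letters TATAAA, searched on both strands, occurred once each in the Mycl and the Gast promoter and in 13.6% of the same set. CACGTG, the E-box that Myc proteins are known to bind, occurred once in the Cck promoter and in 7.15% of the set.

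Over 1 kb either side of the 5′ end of the gene record, the other 4 genes were richer in CpG than most genes. This window differs from the promoter defined above, which uses any protein-coding start. At Hes1 that start lay at 30065340, past the 5′ end at 30064384. At Cck the H3K27Me3 peaks described below lay mostly past the window. The CpG number per 100 bp was 8.60 at Hes1, 7.20 at Sox9, 5.60 at Myc and 5.10 at Aldh1a3, compared with 5.95 at Mycl, 1.95 at Cck and 0.900 at Gast. The median over 21938 genes was 3.05, so that Gast and Cck lay under it and the other 5 genes above it.

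Depth set which peaks could be called. The H3K27Ac lists rested on 83773042 to 95218072 kept fragments and the H3K27Me3 lists on 54166902 to 74870300, of which the RD list was the deepest. Strength is given as the pileup (mean fragments per base in a peak) over the uniform background (kept fragments times fragment size over genome size), with an exact Poisson 95% interval on the estimated fragments of the peak, which covers counting error only. The weakest peak called had a ratio of 2.40 on RD, 2.26 on HFD and 2.37 on HFD-O304 for H3K27Ac, and of 2.74, 3.10 and 2.97 for H3K27Me3. A promoter without a peak is therefore one without enrichment above these limits, not one without the mark.

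The islet label was set beside cell type markers. Of 10 endocrine markers, Ins2, Chga and Chgb carried H3K27Ac at the promoter in every diet and Ins1 in RD and HFD, while Gcg, Sst, Ppy and Iapp had no such peak. These were 40%, 40% and 30% of the endocrine markers in RD, HFD and HFD-O304, compared with 46.7%, 52.6% and 52.0% of all protein-coding genes. The counts thus did not set endocrine markers apart from other genes and do not settle the label. Of 7 duct markers, 2 were called in RD and HFD and 4 in HFD-O304, with Krt19 and Muc1 in addition. Of 9 acinar markers, Bhlha15 alone was called, in each diet, of 7 endothelial and stromal markers Vim alone, in HFD, and of 6 immune markers none. H3K27Me3 was called at 1 endocrine marker in each diet, at 1, 1 and 3 acinar, 1, 1 and 1 duct, 2, 2 and 4 endothelial and stromal and 0 immune markers in RD, HFD and HFD-O304.

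The first question was which of the genes carried each mark at the promoter. H3K27Ac was called at 3 of 7 genes in RD (Hes1, Myc and Mycl), compared with 46.7% of all protein-coding genes. In HFD it was called at 4, with Aldh1a3 in addition, compared with 52.6%, and in HFD-O304 again at Hes1, Myc and Mycl, compared with 52.0%. These shares lay near those of all genes.

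H3K27Me3 was called at Aldh1a3 and Sox9 in RD, where 7.57% of all genes were called. In HFD it was called at 4 genes, Aldh1a3, Sox9, Mycl and Cck, compared with 9.43%, and in HFD-O304 at 3, Aldh1a3, Sox9 and Cck, compared with 10.0%. The H3K27Me3 counts depended on the peak limit, as a common cutoff of 3.10 on the ratio left 0, 4 and 2 genes in RD, HFD and HFD-O304, and a minimum −log10 q of 5 left 0, 0 and 1. The common cutoff is the lowest ratio called in HFD, so the HFD count could not fall, whereas RD peaks were called from 2.74 upwards. Both marks stood at the promoter of none of the 7 on RD (2.22% of all genes), of Aldh1a3 and Mycl on HFD (3.53%) and of none on HFD-O304 (3.04%).

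Promoter calls differed between diets at Aldh1a3, Mycl and Cck. H3K27Ac was called in all 3 diets at 3 of the genes, compared with 45.1% of all genes, and in HFD but not RD at 1 (Aldh1a3), compared with 6.76%. H3K27Me3 was called in all 3 diets at Aldh1a3 and Sox9, compared with 5.93% of all genes, but at the common cutoff neither was called in RD and Aldh1a3 was not called in HFD-O304. It was called in HFD but not RD at Mycl and Cck, compared with 3.06%, and in HFD-O304 but not RD at Cck, compared with 3.66%. Gast had neither mark at its promoter in any diet, and the other 6 genes had at least 1 of them.

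In the gene body and 20 kb either side, H3K27Ac was called at the same 5 genes in each diet, Aldh1a3, Gast, Hes1, Myc and Mycl, compared with 63.1% of all genes on RD, 69.3% on HFD and 67.8% on HFD-O304. In RD and HFD-O304, Aldh1a3 was counted only through a peak at the promoter of its neighbour Lrrk1. Without peaks at another gene's promoter the counts were 4, 5 and 4 in RD, HFD and HFD-O304. H3K27Me3 was called there at the same genes as at the promoter, 2, 4 and 3 in RD, HFD and HFD-O304, compared with 29.9%, 30.6% and 36.4% of all genes.

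**Figure D1:**
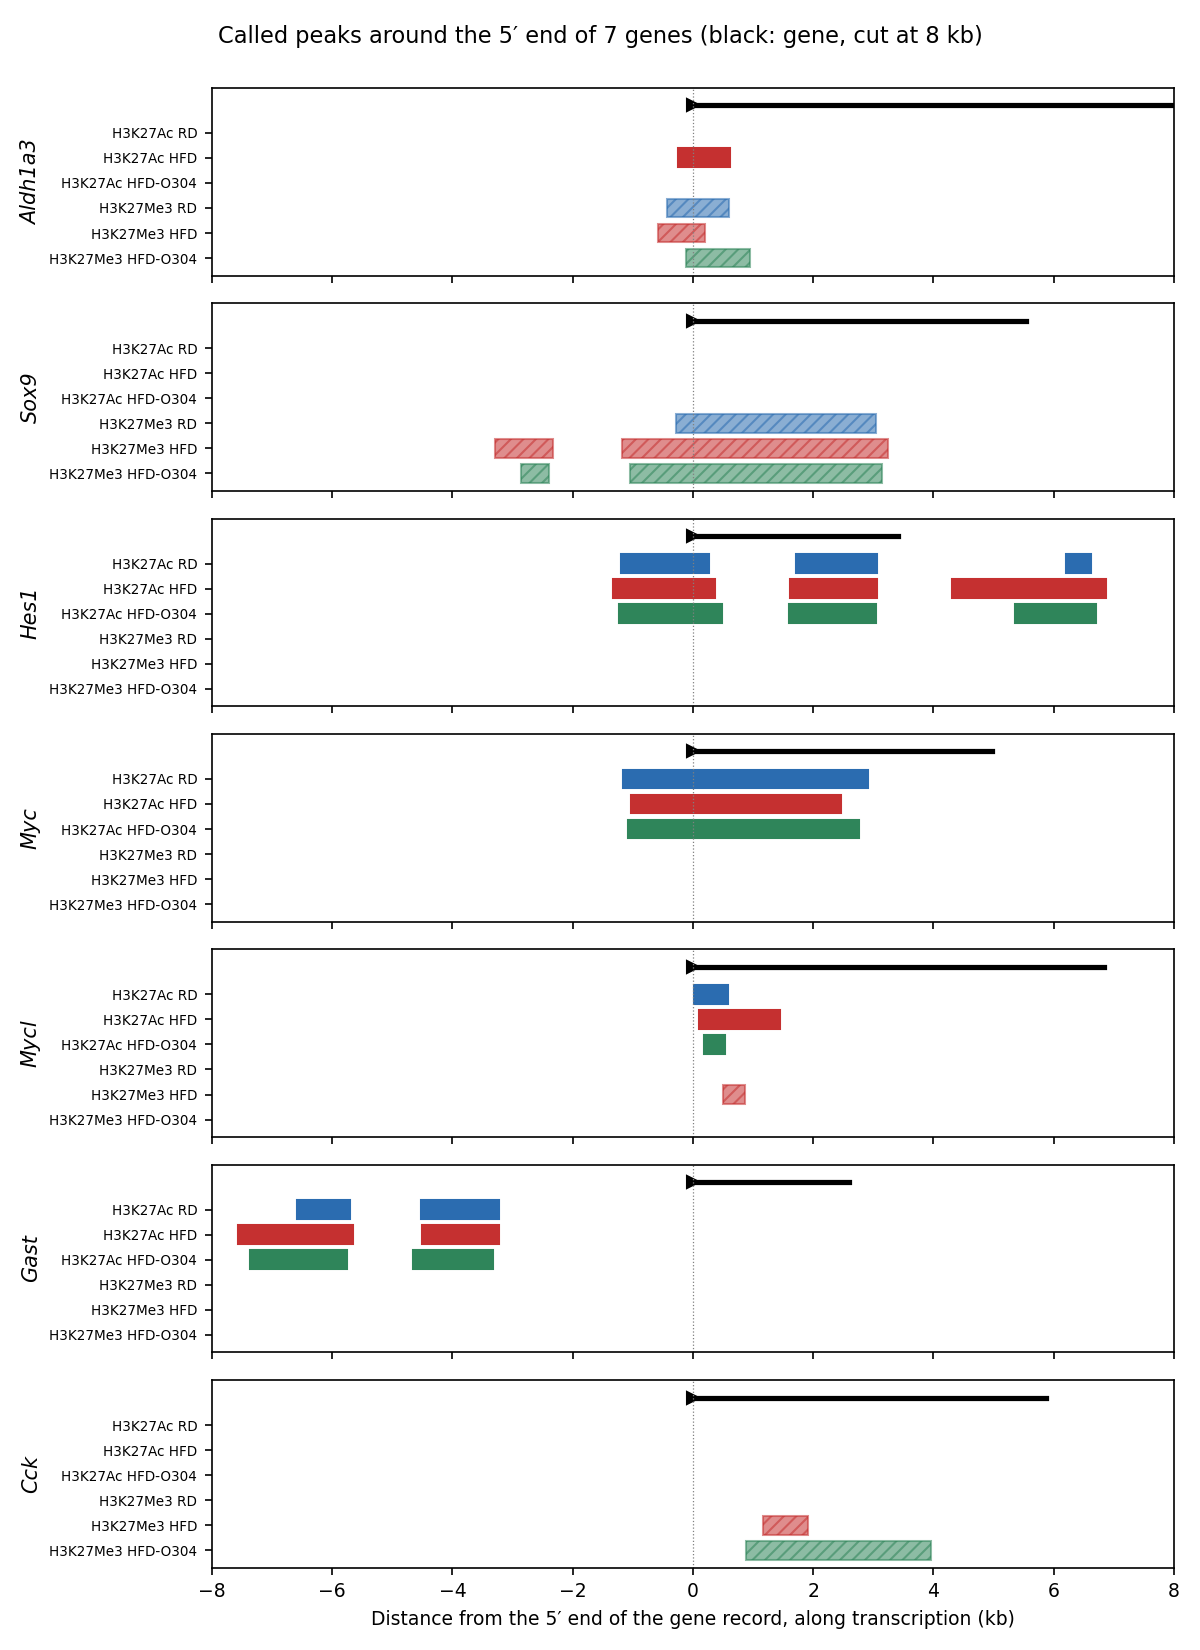
Peaks of H3K27Ac (filled bars) and H3K27Me3 (hatched bars) in RD, HFD and HFD-O304 within 8 kb of the 5′ end of each of the 7 gene records, with distance along transcription in kb on the horizontal axis and the gene as a black line. Hes1 and Myc carried H3K27Ac alone and Sox9 and Cck H3K27Me3 alone, Aldh1a3 and Mycl had both marks in HFD, and the H3K27Ac peaks of Gast lay upstream of the gene.

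Set side by side, the patterns of calls ranged from common to rare. Hes1 and Myc had H3K27Ac in every diet and no H3K27Me3, as did 9368 genes in all (42.5%), and Gast shared its lack of any call with 8338 genes (37.9%). These patterns use all deposited peaks, so that those of Aldh1a3 and Sox9 would change at the common cutoff. The Sox9 pattern, H3K27Me3 in every diet and no H3K27Ac, was that of 687 genes (3.12%), and the Cck pattern, H3K27Me3 in HFD and HFD-O304 alone, that of 318 (1.44%). The Aldh1a3 pattern, H3K27Me3 in every diet and H3K27Ac in HFD alone, was that of 115 genes (0.522%), and the Mycl pattern, H3K27Ac in every diet and H3K27Me3 in HFD alone, that of 62 (0.281%).

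The genes with H3K27Me3 were described first. Aldh1a3 (ENSMUSG00000015134, chromosome 7, 66390890 to 66427517, minus strand), whose product is widely used to mark failing beta cells, served as the reference for the others. Its promoter carried an H3K27Me3 peak of 1030 bp on RD, 772 bp on HFD and 1069 bp on HFD-O304, with ratios of 2.93 (95% interval 2.43 to 3.51), 3.27 (2.56 to 4.11) and 3.03 (2.46 to 3.68). The single H3K27Ac peak at the promoter, in HFD, was 870 bp wide with a pileup of 34.3 and a ratio of 2.50 (2.06 to 3.02). It shared 453 bp with the H3K27Me3 peak of the same diet.

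The H3K27Ac ratio of Aldh1a3 stood near the lower end of what was called at promoters. It lay at percentile 7.25 among the 11585 genes with H3K27Ac at the promoter in HFD, each represented by its strongest promoter peak. The H3K27Me3 ratios lay at percentiles 29.8, 13.5 and 3.99 among the genes so marked in RD, HFD and HFD-O304. The only other H3K27Ac peak within 20 kb lay at the promoter of the neighbouring kinase gene Lrrk1 in each diet, at ratios of 2.59, 3.06 and 2.98.

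The gain of H3K27Ac at a promoter with H3K27Me3 was set beside the other genes that could have shown it. Of 1002 genes with H3K27Me3 at the promoter in all 3 diets and no H3K27Ac there on RD, 224 (22.4%) had H3K27Ac on HFD and 200 (20.0%) on HFD-O304. Aldh1a3 was among the 115 (11.5%) with it in HFD and not in HFD-O304, while 91 (9.08%) had it in HFD-O304 and not in HFD. Sox9 was among the genes with it in neither.

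Sox9 (ENSMUSG00000000567, chromosome 11, 112782224 to 112787760, plus strand), required for pancreatic progenitors and retained in duct cells, had the widest H3K27Me3 peaks of the 7 genes. A peak over the start covered 3327 bp on RD (pileup 26.4), 4433 bp on HFD (24.9) and 4201 bp on HFD-O304 (23.7). Each held 1402 bp of intron and 361 bp of untranslated exon together with 1279, 1490 and 1388 bp of coding sequence. In width they lay at percentiles 93.2, 90.2 and 89.3 among the genes with H3K27Me3 at the promoter.

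The Sox9 ratio was 3.01 on RD (2.72 to 3.32), 3.85 on HFD (3.52 to 4.21) and 3.52 on HFD-O304 (3.20 to 3.86). The counting intervals of RD and HFD did not overlap, but the medians of the whole H3K27Me3 lists also differed, at 3.17 on RD, 3.58 on HFD and 3.43 on HFD-O304. Over the median of its own list the Sox9 ratio was 0.948, 1.08 and 1.03. A second peak upstream of the start, from −3.30 to −2.32 kb, was called in HFD with a width of 978 bp and a ratio of 3.48 (2.83 to 4.24). In HFD-O304 it ran from −2.85 to −2.39 kb, with 467 bp at a ratio of 3.36 (2.47 to 4.45). No peak was called there in RD.

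No H3K27Ac peak lay within 20 kb of Sox9. The nearest one was 777.5 kb downstream on RD, 272.2 kb on HFD and 679.9 kb on HFD-O304, and those of RD and HFD-O304 lay in Slc39a11. In H3K27Me3 ratio the intervals of Sox9 and Aldh1a3 overlapped in each diet, while the Sox9 peaks were several times wider and no H3K27Ac accompanied them in HFD. Both genes lay above the median CpG content, at percentiles 92.9 and 76.9.

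Cck (ENSMUSG00000032532, chromosome 9, 121489824 to 121495694, minus strand), the gene of a gut and brain peptide that stimulates the exocrine pancreas and is induced in islets of obese mice, had no peak of either mark in RD. In HFD an H3K27Me3 peak of 756 bp (pileup 21.8, estimated from 74.0 fragments) had a ratio of 3.38 (2.65 to 4.24). In HFD-O304 the peak was 3067 bp wide (pileup 25.7, 358 fragments) with a ratio of 3.81 (3.42 to 4.22). The peak of HFD-O304 was the strongest H3K27Me3 peak among the 7 genes by its −log10 q of 5.40, compared with 3.15 for that of HFD.

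The Cck peaks lay inside the gene. They ran from 1.16 to 1.91 kb (HFD) and from 0.888 to 3.95 kb (HFD-O304) past the 5′ end of the gene record, so that neither reached the promoter sequence given above. The HFD-O304 peak covered an internal start among the 5 annotated starts, and the HFD peak ended 216 bp from the nearest one. With the 5′ end as the only start, the HFD peak no longer counted as a promoter peak. The HFD-O304 peak spanned 2381 bp of intron, 276 bp of untranslated exon and 410 bp of coding exon.

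The nearest H3K27Me3 peak to Cck in RD lay 77.4 kb downstream and was repeat-masked over its whole length. The nearest H3K27Ac peak lay 45.9 kb downstream in RD and 45.8 kb in HFD and HFD-O304, in the neighbouring gene Trak1. Among the genes of its pathway, Cckbr, the receptor for gastrin and cholecystokinin, had H3K27Me3 at the promoter in HFD and HFD-O304 and not RD, as Cck did. That gene is named after its values were seen.

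**Figure D2:**
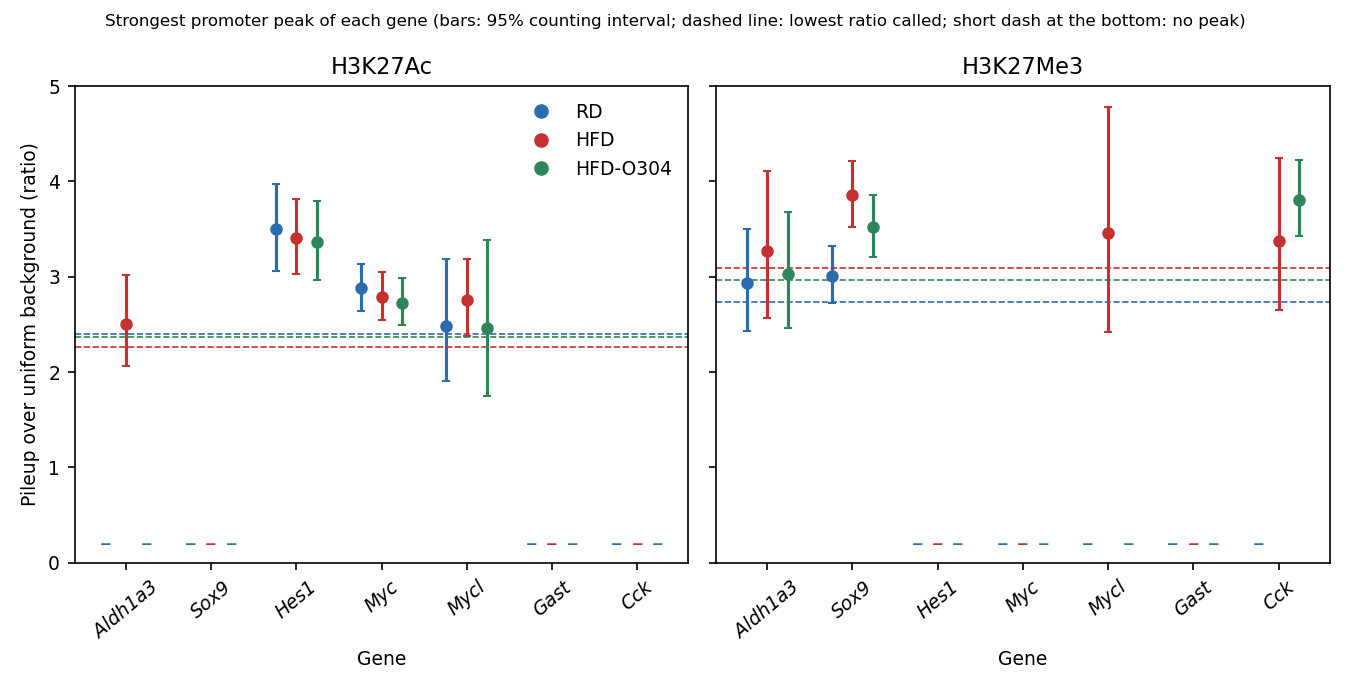
Ratio of pileup to uniform background at the strongest promoter peak of each gene, for H3K27Ac (left) and H3K27Me3 (right), with 95% counting intervals as bars, the lowest ratio called in each list as dashed lines and a short dash where no peak was called. The H3K27Ac ratios of Mycl in RD (2.49) and HFD-O304 (2.47) lay close to the limits of those lists, 2.40 and 2.37. In HFD the limit was 2.26 and the list median 2.80, with Aldh1a3 at 2.50 and Mycl at 2.76. The ratios of Hes1 lay between 3.36 and 3.50.

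Among the genes with H3K27Ac, Hes1 (ENSMUSG00000022528, chromosome 16, 30064384 to 30067796, plus strand), a repressor induced by Notch signalling that holds back endocrine differentiation, had the strongest promoter peaks. A peak before its protein-coding start at 30065340 was 1476 bp wide on RD, 1697 bp on HFD and 1711 bp on HFD-O304. Its ratios were 3.50 (3.06 to 3.98), 3.41 (3.03 to 3.82) and 3.36 (2.97 to 3.80), so that the 3 diets differed by less than the counting intervals. A second peak over the gene body, holding 642 bp of coding sequence in each diet, was 1349, 1452 and 1446 bp wide at ratios of 3.17 (2.74 to 3.65), 3.22 (2.82 to 3.65) and 2.78 (2.39 to 3.21).

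The start of Hes1 itself lay in a gap between these peaks of 1445 bp on RD, 1248 bp on HFD and 1118 bp on HFD-O304. A further peak downstream of the gene was 417 bp wide on RD (ratio 3.69, 2.87 to 4.67), 2568 bp on HFD (3.54, 3.22 to 3.88) and 1355 bp on HFD-O304 (3.33, 2.89 to 3.82). The downstream peak was wider in HFD and HFD-O304 than in RD while its ratio lay within the same intervals. Together the Hes1 peaks covered 3.24 kb on RD, 5.72 kb on HFD and 4.51 kb on HFD-O304, and over the list as a whole the median peak was 784.5, 849.5 and 862 bp wide in the same order.

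By ratio, Hes1 lay at percentiles 70.9, 58.0 and 53.3 among the genes with promoter H3K27Ac in RD, HFD and HFD-O304. The nearest H3K27Me3 peak was 179.5 kb away on RD, 215.1 kb on HFD and 522.8 kb on HFD-O304. Around the 5′ end of the gene record, Hes1 had the highest CpG content of the 7 genes, at percentile 97.2, and Sox9, next to it in that order, carried the opposite mark.

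Myc (ENSMUSG00000022346, chromosome 15, 61985391 to 61990374, plus strand), a driver of cell growth and proliferation that is kept low in mature beta cells, carried a single broad H3K27Ac peak over its 6 starts. It was 4073 bp wide on RD (pileup 34.8), 3480 bp on HFD (38.2) and 3851 bp on HFD-O304 (33.4). The ratios were 2.88 (2.64 to 3.13), 2.79 (2.55 to 3.05) and 2.73 (2.49 to 2.99). The intervals of the 3 diets overlapped and the peak was widest in RD.

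The Myc peak was wide but not strong. In width it lay at percentiles 98.6, 96.2 and 97.1 among the genes with promoter H3K27Ac, and in ratio at percentiles 26.9, 21.9 and 13.3. Each peak held 886 bp of untranslated exon, and the coding part was 802, 373 and 682 bp. The nearest H3K27Me3 peaks lay 70.2, 147.0 and 70.1 kb upstream and were repeat-masked throughout.

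Mycl (ENSMUSG00000028654, chromosome 4, 122995652 to 123002485, plus strand), which encodes L-Myc, had narrower H3K27Ac peaks than Myc. They were 566 bp wide on RD, 1353 bp on HFD and 340 bp on HFD-O304, with pileups of 30.1, 37.8 and 30.2. The ratios were 2.49 (1.91 to 3.18), 2.76 (2.38 to 3.18) and 2.47 (1.75 to 3.39). The peak was widest in HFD, and the intervals of all diets overlapped.

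In RD and HFD-O304 the Mycl peak was among the weakest at promoters. By ratio it lay at percentiles 2.42 and 2.09 of the genes with promoter H3K27Ac, compared with 20.1 in HFD. When the 3 H3K27Ac lists were cut to the same number of peaks, the Mycl peak of HFD-O304 was lost. The RD peak, from 122995664, held all of the promoter sequence given above, whereas the peaks of HFD and HFD-O304 began within it.

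H3K27Me3 was called at Mycl in HFD alone. The peak was 362 bp wide (122996161 to 122996522), with a pileup of 22.3 from an estimated 36.3 fragments, a ratio of 3.46 (2.43 to 4.78) and a −log10 q of 3.42. It lay 62 bp from the nearest start, consisted of untranslated exon throughout and was contained in the H3K27Ac peak of the same diet. Its counting interval reached below the limit of 3.10 at which peaks were called in that list. Elsewhere the nearest H3K27Me3 peak was 102.0 kb away in RD, in Bmp8b, and 90.6 kb away in HFD-O304.

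At Aldh1a3 the mark in common between diets was H3K27Me3 and the one called in HFD alone was H3K27Ac, and at Mycl it was the reverse. The sequence held by both marks in HFD was 453 bp at Aldh1a3 and 362 bp at Mycl. Within 20 kb of Mycl, the only other peak was that of H3K27Ac at the promoter of Trit1, a tRNA modifying enzyme, with ratios of 3.03, 3.42 and 3.33 in RD, HFD and HFD-O304.

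Gast (ENSMUSG00000017165, chromosome 11, 100334407 to 100336996, plus strand), expressed in the fetal pancreas and silent in normal adult islets, had no peak over the gene. H3K27Ac was called upstream of it in each diet. The nearer element was 1303 bp wide on RD, 1267 bp on HFD and 1326 bp on HFD-O304. Its ratios were 2.74 (2.33 to 3.20), 2.94 (2.54 to 3.39) and 2.87 (2.46 to 3.33), with intervals that overlapped.

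The 3 peaks of the nearer element had 1169 bp in common, 3.33 to 4.50 kb upstream of the Gast start. The central 300 bases of this stretch (chr11:100330345-100330644, plus strand, GRCm38) are given to set the acetylated sequence beside the unmarked promoter, with every CG in capitals.
Gast upstream element: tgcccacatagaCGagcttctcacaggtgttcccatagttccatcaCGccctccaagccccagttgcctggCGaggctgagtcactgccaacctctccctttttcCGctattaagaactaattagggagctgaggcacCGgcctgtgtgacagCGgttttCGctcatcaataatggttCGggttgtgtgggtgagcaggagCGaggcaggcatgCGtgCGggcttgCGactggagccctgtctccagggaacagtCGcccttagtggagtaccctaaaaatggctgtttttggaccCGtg
It held 14 CG dinucleotides, compared with 3 in the Gast promoter sequence of the same length, no repeat-masked base and neither TATAAA nor CACGTG on either strand. It is the reference sequence and was not tested for function.

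A farther element upstream of Gast was weaker. It was 882 bp wide on RD at a ratio of 2.52 (2.05 to 3.06), 1900 bp on HFD at 2.58 (2.27 to 2.92) and 1628 bp on HFD-O304 at 2.43 (2.09 to 2.81). Repeat-masked bases made up 52.6% of the RD peak and less than that in the other diets, at 36.7% and 36.1%. A peak of 295 bp at a ratio of 2.73 (1.92 to 3.77) was called in HFD-O304 alone.

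The other peaks in the Gast window belonged to the neighbouring promoters. H3K27Ac at Eif1, a translation initiation factor expressed in every cell, had ratios of 4.39, 5.03 and 4.88, the highest in the windows of the 7 genes, and at Hap1 of 3.03, 3.22 and 3.60. The nearest H3K27Me3 peaks to Gast were 326.8 kb away on RD, 326.2 kb on HFD and 145.5 kb on HFD-O304. Those of RD and HFD were repeat-masked throughout, and that of HFD-O304 over 59.6% of its length. Gast and Cck, the peptide hormone genes, together with Sox9 had no H3K27Ac at the promoter in any diet.

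**Figure D3:**
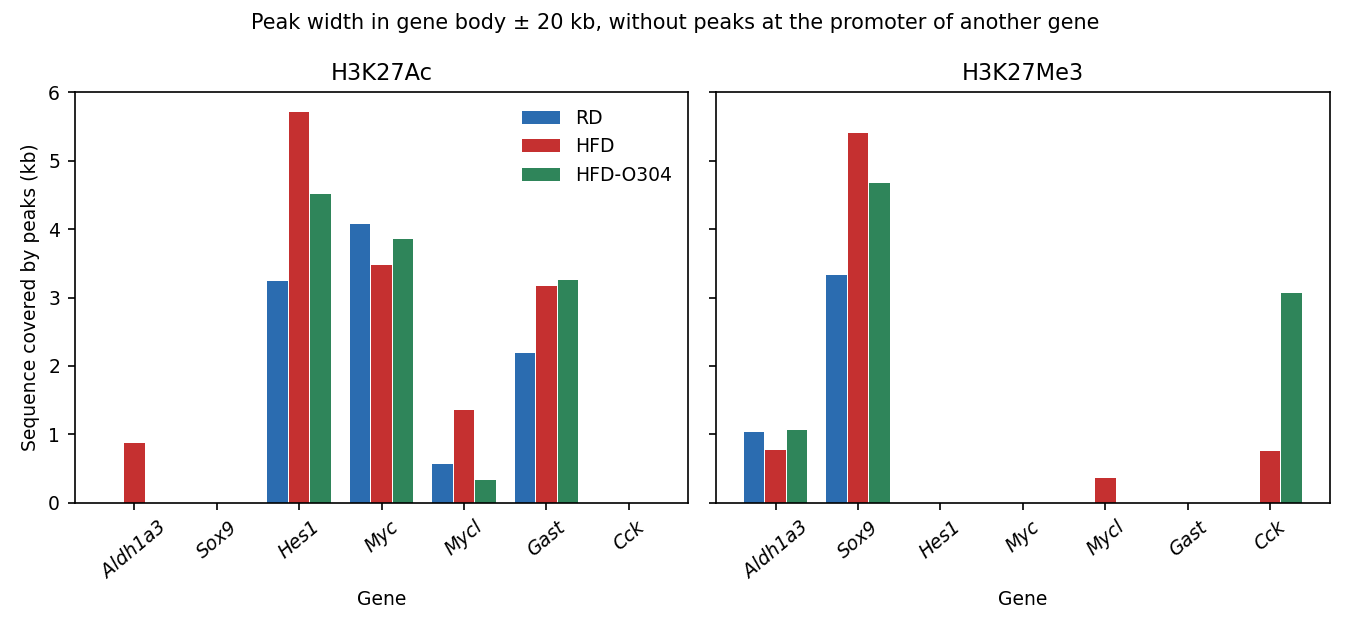
Sequence covered by H3K27Ac (left) and H3K27Me3 (right) peaks, in kb, in each gene body with 20 kb either side, without peaks at the promoter of another gene, in RD, HFD and HFD-O304. H3K27Ac covered 3.24 kb on RD and 5.72 kb on HFD at Hes1, and H3K27Me3 covered no sequence on RD and 3.07 kb on HFD-O304 at Cck.

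Related genes were counted by lists at the promoter, in the order RD, HFD and HFD-O304 and beside the shares of all genes given above. Of 12 beta cell identity genes, 10, 12 and 12 carried H3K27Ac and 0, 0 and 1 carried H3K27Me3. The 2 that were called in HFD and not RD were Neurod1, an islet transcription factor (ratio 2.73 in HFD and 2.91 in HFD-O304), and Slc2a2, the glucose transporter GLUT2 (2.55 and 2.73). Both were also called in HFD-O304, unlike Aldh1a3.

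Of 15 genes termed disallowed, as they are kept low in beta cells compared with other tissues, 7, 8 and 9 carried H3K27Ac and 6, 13 and 10 carried H3K27Me3. Both marks stood at 2, 7 and 6 of them. The acyl-CoA thioesterase gene Acot7 (2.71 in HFD and 2.91 in HFD-O304) and Igfbp4, which encodes a binding protein of insulin-like growth factors (2.85 and 2.80), had H3K27Ac in HFD and not RD, and Oat, the ornithine aminotransferase gene, in RD alone (2.67).

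Of 15 other genes of the ALDH1 family and retinoic acid handling, 4, 5 and 6 carried H3K27Ac and 5, 6 and 5 carried H3K27Me3, with both marks at 0, 1 and 1. The one with H3K27Ac in HFD and not RD was Aldh1a2, another retinaldehyde dehydrogenase (2.33 in HFD and 2.47 in HFD-O304). Its HFD ratio lay under 2.40, the lowest called in RD. Unlike that of Aldh1a3, its call was made in HFD-O304 as well.

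Of 21 genes of the Notch pathway and the Hes family other than Hes1, 9, 13 and 14 carried H3K27Ac, 5, 6 and 8 carried H3K27Me3 and 0, 4 and 4 carried both. The 4 with H3K27Ac in HFD and not RD were Hes3 (2.81), Hes5 (2.46), Hey2 (2.66) and the receptor gene Notch3 (2.60). All 4 had H3K27Me3 in each diet. In HFD-O304 the ratios were 2.50 at Hes5, 2.46 at Hey2 and 2.91 at Notch3, and Hes3 had no peak, which gave it the same 6 calls as Aldh1a3.

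Of 11 genes of the Myc network, 10, 11 and 10 carried H3K27Ac, 1, 1 and 1 H3K27Me3 and 0, 1 and 1 both. Mycn, a paralogue of Myc and Mycl, had H3K27Ac in HFD (2.41) and HFD-O304 (2.50) and not RD. Of 9 other Sox genes, 2, 2 and 4 carried H3K27Ac, 6, 6 and 6 H3K27Me3 and 0, 0 and 2 both, so that most of them, as Sox9, carried H3K27Me3 in every diet. Of 8 genes of gastrin and cholecystokinin processing and reception, 6, 6 and 6 carried H3K27Ac, 0, 1 and 1 H3K27Me3 and none both.

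Of 5 pluripotency genes, among them Mycn again, 0, 2 and 2 carried H3K27Ac, 1, 1 and 2 H3K27Me3 and 0, 1 and 1 both. Lin28a, an RNA-binding protein gene of stem cells, was called in HFD (2.50) and HFD-O304 (2.63) and not RD. Among the 7 endothelial and stromal markers, Vim, an intermediate filament gene of mesenchymal cells, had H3K27Ac in HFD alone (2.42). With H3K27Me3 in each diet, Vim had the pattern of Aldh1a3. The other markers of that list had no promoter H3K27Ac in any diet. Whether mesenchymal cells bear on the Aldh1a3 peak was not tested.

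**Figure D4:**
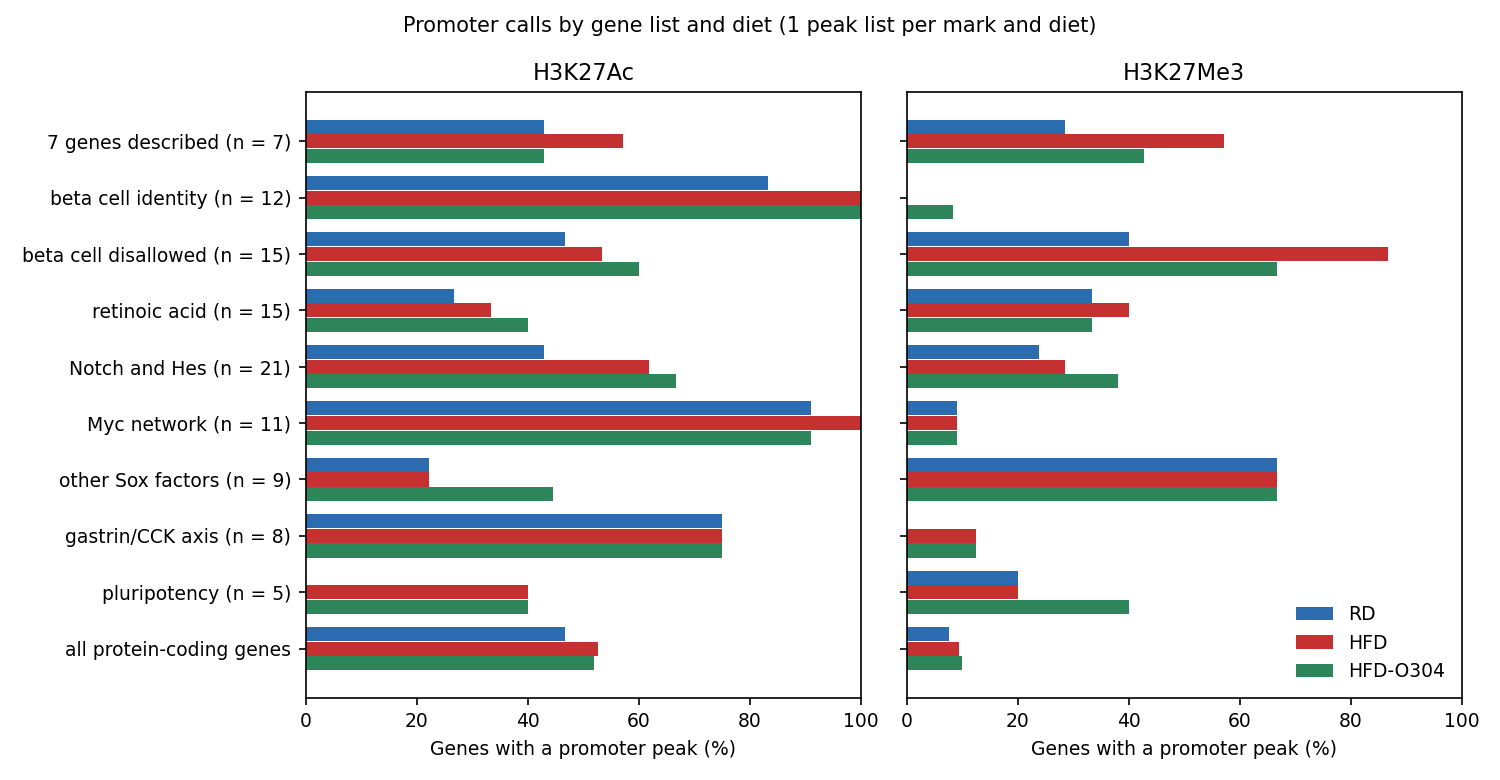
Percentage of genes with an H3K27Ac (left) or H3K27Me3 (right) promoter peak in RD, HFD and HFD-O304, for the 7 genes, for each list of related genes (n, genes in the list) and for all protein-coding genes. In RD the beta cell identity, Myc network and gastrin/CCK lists lay above all genes for H3K27Ac, at 10 of 12, 10 of 11 and 6 of 8 genes. For H3K27Me3 in RD, every list other than beta cell identity and gastrin/CCK lay above all genes (7.57%). The Myc network (1 of 11) and pluripotency (1 of 5) lists did so through the same gene, Mycn.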

How the data were processed

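Deposited peak lists were used for 12 ChIP samples of islets (2 replicates per mark and diet), grouped by mark and diet from the titles. The authors mapped reads to GRCm38 (Ensembl release 96) with bowtie2, merged replicates and ran MACS 2.1.2 in broad mode. The headers give a q cutoff of 0.01, paired fragments, an effective genome size of 1870000000 and no control file. Duplicates made up 17.2% to 18.4% of the H3K27Ac and 45.7% to 56.9% of the H3K27Me3 fragments. The pileup deposited by the authors is the mean coverage signal of a peak. The deposited fold enrichment is a ratio of pileup to background with the same small constant added to both, and the deposited −log10 q comes from the peak caller.

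Peaks were matched to windows of GENCODE mouse release 21 starts and genes with an overlap of at least 1 bp, in Python 3.11.15 with pandas 2.3.3, numpy 2.4.6 and scipy 1.17.1, and the matching was tested on simulated data. The ratio is pileup over kept fragments times fragment size over genome size. Peaks were placed on the C57BL/6J reference, from which masked bases were read.

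The genes and lists were chosen with earlier results of these data known. All 7 genes were named, and of each other list up to 4 genes, in alphabetical order, whose promoter H3K27Ac call differed between HFD and RD. Cell type markers and Cckbr were named outside this rule, after their values were seen. In total, 11 alternatives were tried. The fold and ratio of 1 list have no replicate error, and the 3 input samples are not used here. Some marker genes are counted but not reported by name.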

Additional observations from a re-analysis of the deposited data

How the results depend on the processing

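Of 111 recomputed counts for 15 counts of genes, 98 lay within 1.5 times the value given. Some of the 98 could not move. A count of 0 cannot fall under a stricter limit. The common cutoffs and equal list sizes were those of 1 list per mark, whose counts they left unchanged. No promoter peak of the 7 genes reached the 50% of masked bases used as a limit. A minimum −log10 q of 5, which removes weak peaks by construction, left promoter H3K27Ac at 1 gene on RD (Hes1), 2 on HFD (Hes1 and Myc) and 1 on HFD-O304 (Hes1), promoter H3K27Me3 at 0 on RD, 0 on HFD and 1 on HFD-O304 (Cck), both marks in HFD at 0, H3K27Ac in the gene body with 20 kb either side at 3 on RD, and H3K27Me3 there at 0 on RD, 0 on HFD and 1 on HFD-O304. Thus the Aldh1a3 and Mycl calls in HFD rested on peaks below that limit. A common cutoff of 3.10 on the H3K27Me3 ratio left 0 genes in RD, at the promoter and in the wider window, as the RD peaks of Aldh1a3 and Sox9 lay under it. This cutoff is the lower limit of the HFD list, which could therefore lose no peak. With equal list sizes Mycl lost its H3K27Ac peak and Aldh1a3 its H3K27Me3 peak in HFD-O304, and at the common cutoff Aldh1a3 lost the latter too. The fold enrichment of the files adds the same small constant to pileup and background. It was therefore lower than the ratio at all 22 promoter peaks by construction, and within the counting interval at 19. Outside the interval the fold was 3.41 for Sox9 in HFD, 3.16 for Sox9 in HFD-O304 and 3.41 for Cck in HFD-O304, all H3K27Me3. No paired analysis was possible because each list joined both replicates, which also meant that neither of them could be removed in turn.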

Other observations

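H3K27Me3 was called at the promoter in HFD and not RD at 3.06% of all protein-coding genes. Among the 15 disallowed genes it was so called at 7, Lmo4, Acot7, Rest, Mgst1, Oat, Yap1 and Zfp36l1. Of these, Rest, Oat and Yap1 were not called in HFD-O304. Rest, which encodes a repressor of neuronal and endocrine genes, and Yap1, a growth regulator, carried H3K27Ac in each diet and H3K27Me3 in HFD alone, the same 6 calls as Mycl. These genes are named after their values were seen, and no test between diets was possible. How their calls depend on the peak limit was not examined. For the genes described above, no H3K27Me3 promoter call in HFD was left at a minimum −log10 q of 5.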
